A study of Mus musculus with 6 samples.

Results

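The genes described here are the 8 that encode the subunits of the chaperonin CCT: Tcp1, Cct2, Cct3, Cct4, Cct5, Cct6a, Cct7 and Cct8. They were chosen by name, with earlier results of these data known. Counts of them beside the share of all genes are thus a description and not a test of the set. Each was read from the probe set that names only its symbol. Each gene had 1 such probe set, so 8 of the 19938 genes measured were followed. Expression was measured with Affymetrix arrays in BDC2.5 CD4 T cells, whose transgenic T cell receptor recognises an islet beta cell antigen. The cells had been transferred into female NOD mice, a strain that develops autoimmune diabetes, aged 7 weeks, and were sorted from the spleen as Thy1.1+CD4+ cells 14 h after an injection. The PBS group received the buffer as control. The anti-DEC205-BDC group received 100 ng of an antibody that carries the BDC antigen to DEC205+ dendritic cells, and the anti-DCIR2-BDC group 100 ng of an antibody that carries it to DCIR2+ dendritic cells. Each group had 2 arrays of separate biological samples, numbered 1 and 2 within PBS, DEC205 and DCIR2, and the number of mice behind each is not given in the sources used here. No group received an antibody without antigen, so effects of antigen and antibody cannot be told apart. In sorted bulk samples, fewer cells of a type and less RNA per cell cannot be told apart either.

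CCT, also called TRiC, is the chaperonin of the cytosol. Its subunits are related proteins that build a double ring, each ring holding a copy of every subunit, and ATP binding and hydrolysis close the ring over an unfolded protein. It is known above all for folding actin and tubulin, and also folds many WD repeat proteins, with prefoldin handing over clients and phosducin-like proteins acting as cofactors. Resting T cells are small and make little protein, and they enlarge and raise protein synthesis after stimulation through the T cell receptor.

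The T cell label was checked on 11 measured markers (of 12 listed), which all lay above the median level of all genes, with Cd3e at a mean of 11.66 on the log2 scale. The summed signal of these 11, as log2, lay at 14.20 to 14.26 on the PBS arrays, 13.85 to 13.96 on the DEC205 arrays and 13.52 to 13.54 on the DCIR2 arrays. In limma 1 T cell marker rose (Zap70) and 1 fell (Trat1) after anti-DEC205-BDC, and 1 rose and 7 fell after anti-DCIR2-BDC. Among all genes 5.32% rose and 3.53% fell in the first comparison, and 10.1% and 7.82% in the second. Zap70 (adjusted p = 0.0566) and Trat1 (0.143) did not pass after anti-DEC205-BDC when DEC205 array 2 was left out, nor Trat1 (0.154) without PBS array 1. Cd3e did pass there, downwards, without DCIR2 array 1 (0.0455) or 2 (0.048). Of the 7 that fell after anti-DCIR2-BDC, Cd4 did not pass without PBS array 2 (0.115) or DCIR2 array 1 (0.111). None of 6 neutrophil and 2 erythroid markers measured lay above the median level, and neither did 6 of 7 B cell markers. Above it lay 2 of 8 macrophage and monocyte markers, 1 of 5 plasma cell markers and 1 of 2 CD8 T cell markers (Cd8b1, mean 6.44). In these lists Cd14 fell after anti-DEC205-BDC (limma adjusted p = 0.0341) and Prdm1 after both antibodies (0.0328 and 0.0188). None of these calls held in every alternative fit. Summed signals of 11 dendritic cell markers went from 9.43 to 9.46 in PBS through 9.16 to 9.28 in DEC205 to 8.91 to 9.08 in DCIR2, and Ly75 was the only 1 of the 11 to pass, downwards in both comparisons with PBS (adjusted p = 0.0297 and 0.00182), the first not without any 1 array left out (0.0562 to 0.133). Those of 6 natural killer cell markers went from 8.93 to 8.94 through 8.63 to 8.72 to 8.15 to 8.35. In that list Klrd1 (log2 changes -1.54 and -2.62) and Prf1 (-0.97 and -0.95) fell in both comparisons and Klrk1 (-0.52) after anti-DCIR2-BDC, while Eomes rose in both (1.64 and 1.06) and Ncr1 and Klrb1c did not pass. After anti-DEC205-BDC Klrd1 did not pass without PBS array 2 (0.0711) nor Prf1 without DEC205 array 1 (0.0648). After anti-DCIR2-BDC Prf1 did not without DCIR2 array 1 (0.0536), Eomes not without PBS array 2 (0.139) or DCIR2 array 1 (0.0506) or 2 (0.177), and Klrk1 not without PBS array 1 (0.0853) or 2 (0.147) or DCIR2 array 2 (0.276). Those of 6 stromal and endothelial markers went from 9.24 to 9.74 through 8.74 to 8.92 to 8.47 to 8.54. In that list only Pecam1 passed (-1.06 and -1.96), in the first comparison not without PBS array 2, either DEC205 array or either DCIR2 array (0.0585 to 0.166). The other 5 changed by -0.10 to 0.06 after anti-DCIR2-BDC. The sums moved opposite to the values reported next, and their part in the result was not tested.

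All 8 CCT subunit genes rose after both antibodies. After anti-DEC205-BDC the rises ran from 1.96-fold for Cct6a to 3.47-fold for Cct3, with limma adjusted p from 0.000549 to 0.0071. After anti-DCIR2-BDC they ran from 2.78-fold for Cct2 to 5.35-fold for Cct3, with adjusted p from 3.93e-05 to 0.000191. At the same threshold, an adjusted p under 0.05 over all genes, 5.32% of all genes rose and 3.53% fell after anti-DEC205-BDC, 8.84% together. After anti-DCIR2-BDC 10.1% rose and 7.82% fell, 17.9% together. Rises of at least 2-fold that passed were found for 7 of 8 subunits after anti-DEC205-BDC (2.88% of all genes) and for 8 of 8 after anti-DCIR2-BDC (5.81%). The median log2 change of the subunits was 1.18 after anti-DEC205-BDC and 1.66 after anti-DCIR2-BDC, against medians of -0.03 and -0.05 over all 19938 genes. Both comparisons use the same PBS arrays. For each of the 8 genes both DCIR2 arrays also lay above both DEC205 arrays, which in turn lay above both PBS arrays. That order held in 8.01% of all genes. Taken singly, both DEC205 arrays lay above both PBS arrays in 22.2% of all genes, and both DCIR2 arrays did in 23.4%.

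**Figure D1:**
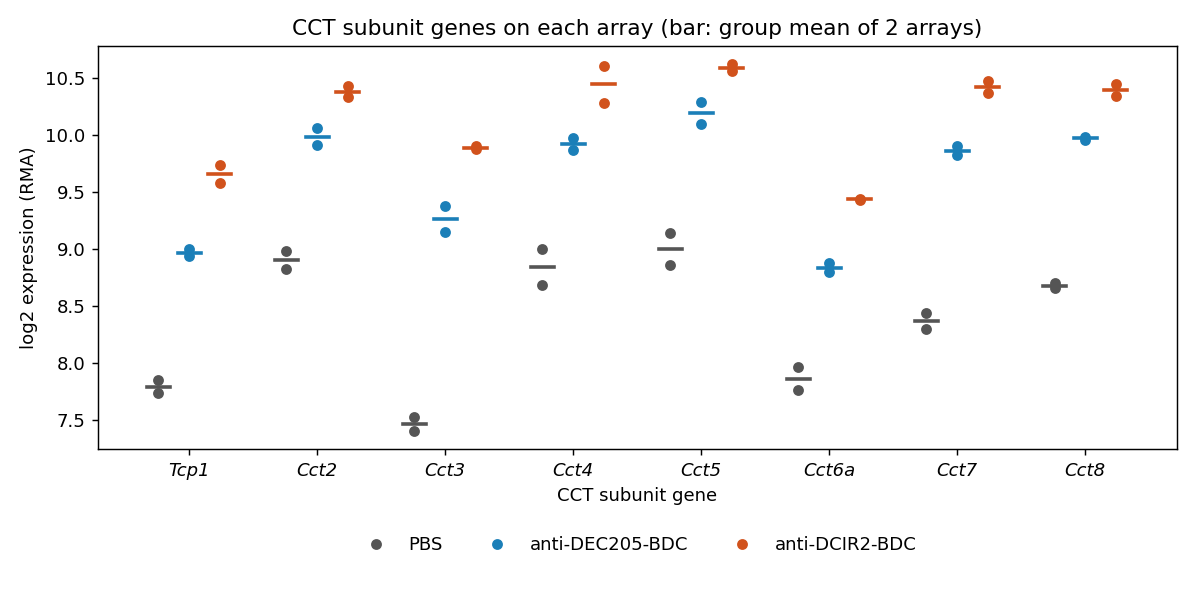
Log2 expression of the 8 CCT subunit genes (x axis) on each of the 6 arrays, with points for arrays and bars for the mean of 2 arrays per group. For every gene the PBS points lie lowest, the anti-DEC205-BDC points in the middle and the anti-DCIR2-BDC points highest, with no overlap between groups.

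The values are given subunit by subunit by the ATP affinity of their proteins, first Cct2, Cct4, Cct5 and Cct7, whose proteins bind ATP tightly, then Tcp1, Cct3, Cct6a and Cct8, whose proteins bind it weakly. Cct2, the beta subunit, was at 8.99 and 8.83 on PBS arrays 1 and 2, at 9.91 and 10.06 on the DEC205 arrays and at 10.34 and 10.43 on the DCIR2 arrays. It rose 2.11-fold after anti-DEC205-BDC (log2 change 1.08 ± 0.15, standard error) and 2.78-fold after anti-DCIR2-BDC (1.47 ± 0.15). The groups did not overlap, and the smallest gap, 0.27, lay between the antibodies.

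Cct4, the delta subunit, was at 8.999 and 8.69 on the PBS arrays, 9.87 and 9.98 on the DEC205 arrays and 10.29 and 10.60 on the DCIR2 arrays. Its arrays differed most within a group, by 0.31 within PBS and 0.32 within DCIR2. It rose 2.12-fold (log2 change 1.08 ± 0.17) and 3.04-fold (1.60 ± 0.17), both well beyond that spread. Cct5, the epsilon subunit, was at 9.14 and 8.86 in PBS, 10.10 and 10.29 after anti-DEC205-BDC and 10.62 and 10.56 after anti-DCIR2-BDC. Its rises were 2.28-fold and 3.02-fold (log2 changes 1.19 ± 0.16 and 1.59 ± 0.16), and no arrays overlapped between groups.

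Cct7, the eta subunit, was at 8.31 and 8.44 on the PBS arrays, 9.83 and 9.90 on the DEC205 arrays and 10.48 and 10.37 on the DCIR2 arrays. Within groups its arrays lay within 0.14 of each other, and the lowest DEC205 array lay 1.39 above the highest PBS array. Its rises, 2.81-fold (log2 change 1.49 ± 0.15) and 4.14-fold (2.05 ± 0.15), were the largest of the tight ATP binders and second to Cct3 among all 8 in both comparisons.

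Tcp1, the alpha subunit, after which the family is named, was at 7.85 and 7.74 in PBS, 8.999 and 8.94 after anti-DEC205-BDC and 9.58 and 9.74 after anti-DCIR2-BDC. It rose 2.25-fold (log2 change 1.17 ± 0.17) and 3.64-fold (1.86 ± 0.17). The gap between its DEC205 and DCIR2 arrays, 0.58, was the widest of the 8 genes. Cct3, the gamma subunit, was at 7.53 and 7.41 on the PBS arrays, 9.15 and 9.38 on the DEC205 arrays and 9.88 and 9.90 on the DCIR2 arrays. It had the largest rises of the 8, 3.47-fold (1.79 ± 0.17) and 5.35-fold (2.42 ± 0.17), and ranked 69th and 59th among all genes by size of rise.

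Cct6a, the zeta subunit, was at 7.97 and 7.76 in PBS, 8.80 and 8.88 after anti-DEC205-BDC and 9.44 and 9.43 after anti-DCIR2-BDC. Its 1.96-fold rise (log2 change 0.97 ± 0.17) after anti-DEC205-BDC was the smallest, with a 95% interval of 0.59 to 1.36, and it rose 2.97-fold (1.57 ± 0.17) after anti-DCIR2-BDC. Cct8, the theta subunit, was at 8.66 and 8.71 in PBS, 9.96 and 9.99 after anti-DEC205-BDC and 10.34 and 10.45 after anti-DCIR2-BDC. Its arrays differed by at most 0.11 within a group, against rises of 2.44-fold (1.29 ± 0.15) and 3.28-fold (1.71 ± 0.15).

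The tight and the weak ATP binders were interleaved. After anti-DEC205-BDC the log2 changes of the 4 tight ATP binders ran from 1.08 to 1.49 and those of the 4 weak binders from 0.97 to 1.79. After anti-DCIR2-BDC they ran from 1.47 to 2.05 and from 1.57 to 2.42. The grouping by ATP affinity was chosen after the values were seen and was not tested.

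The antibody groups were then compared with each other. These groups differ both in the antibody and in the dendritic cells that it targets, and the 2 cannot be told apart here. The subunits lay 1.32-fold (Cct2) to 1.61-fold (Tcp1) higher after anti-DCIR2-BDC, with a median log2 difference of 0.54 against -0.01 over all genes. None of the 8 passed (limma adjusted p from 0.225 for Tcp1 to 0.427 for Cct5), and 4 of 19938 genes, or 0.0201%, passed upwards. At an unadjusted p under 0.05, 8 of 8 subunits were higher, against 5.58% of all genes. Both DCIR2 arrays lay above both DEC205 arrays for all 8, as for 19.3% of all genes. The 95% intervals, which are not adjusted for the number of genes, lay above 0 for each subunit, from 0.05 to 0.75 for Cct5 up to 0.31 to 1.07 for Tcp1. The 2 arrays per group thus did not settle a difference of this size across all genes, and the misses do not show that the antibodies acted alike.

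**Figure D2:**
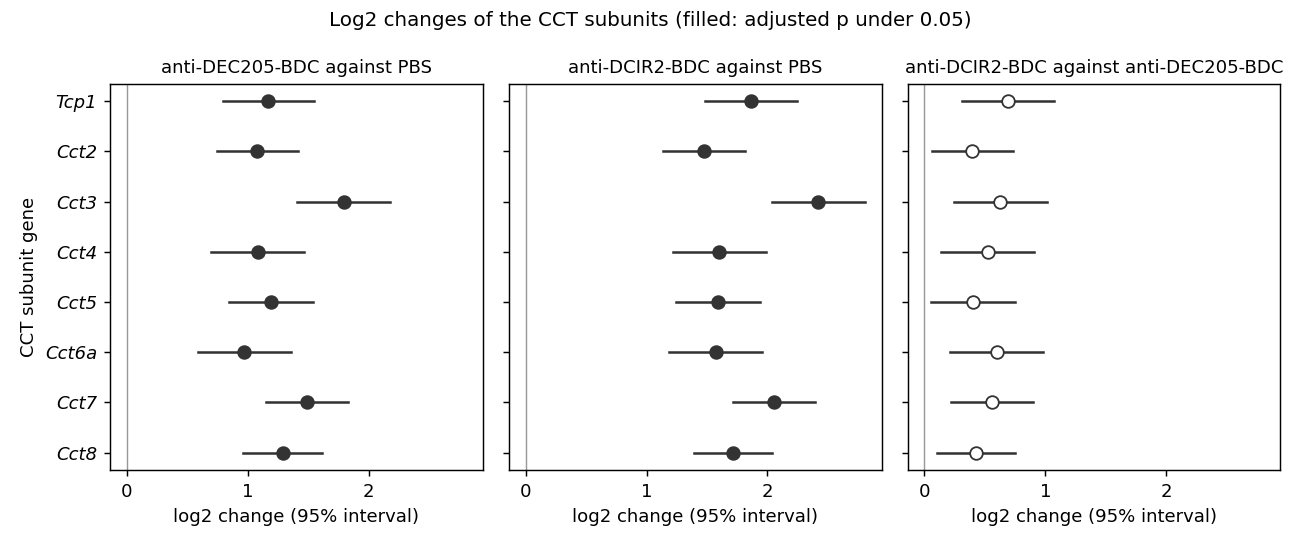
Log2 changes of the 8 CCT subunit genes (y axis) in the 3 comparisons, with 95% intervals from limma; filled points passed at an adjusted p under 0.05. All points against PBS are filled, Cct3 is farthest to the right in both, and all points between the antibodies are open, at 0.40 to 0.69.

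The subunits did not rise by equal amounts. To follow this within arrays, each subunit's log2 value was set against the mean of the other 7 on the same array and expressed relative to its PBS mean, so that 0 is the balance in PBS. For Cct3 this measure was 0.54 and 0.68 on DEC205 arrays 1 and 2 and 0.75 and 0.70 on the DCIR2 arrays, while the PBS arrays were less than 0.01 apart. Cct3 thus gained on the other subunits on all 4 antibody arrays. Cct7 stood at 0.28 and 0.25, then 0.40 and 0.20, above both PBS arrays (-0.15 and 0.15). Both genes moved up relative to the rest, Cct3 by more.

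In the other direction Cct2 stood at -0.24 and -0.18 on the DEC205 arrays and -0.37 and -0.34 on the DCIR2 arrays, below both PBS arrays (0.02 and -0.02). Cct6a stood at -0.31 and -0.34, then -0.20 and -0.29, also below PBS (0.04 and -0.04). Both gained less than the mean of their partners on every antibody array. The measure for Cct8 overlapped PBS in both groups, those of Tcp1 and Cct5 overlapped it after anti-DEC205-BDC, and that of Cct4 did so after anti-DCIR2-BDC. These differences were not tested. An exact permutation test of 2 arrays against 2 cannot give a two-sided p below 0.333, and probe sets can differ in how much of a change they record.

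**Figure D3:**
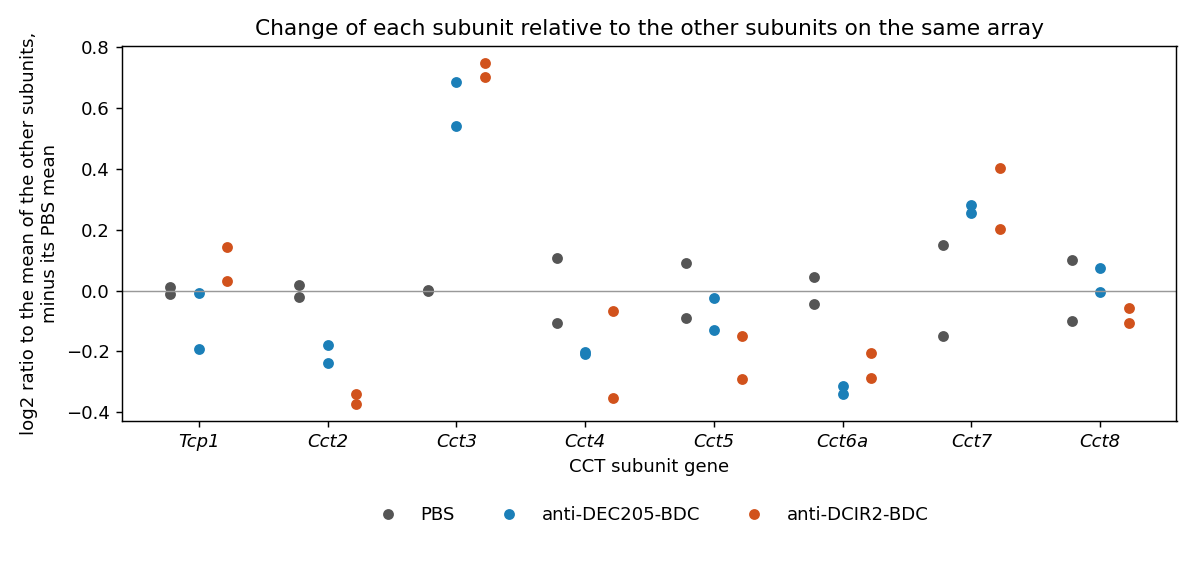
Log2 ratio of each CCT subunit gene to the mean of the other 7 on the same array, minus its PBS mean (y axis), with 1 point per array. The 4 antibody points of Cct3 lie between 0.54 and 0.75, those of Cct7 above both PBS points, and those of Cct2 and Cct6a below them.

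Genes with the most similar pattern were found by the root mean square distance, over the 6 arrays, between log2 values centred on each gene's mean. The nearest to the mean of the 8 subunits was Nup133, a nuclear pore scaffold protein, at a distance of 0.0352. Next came Etf1 (0.0577), the translation termination factor, Nup93 (0.0613), another nuclear pore protein, Ruvbl2 (0.0684), an ATPase of chaperone and chromatin complexes, and Rsl1d1 (0.0691), a nucleolar protein. Nup133 was at 6.38 and 6.26 on the PBS arrays, 7.48 and 7.63 on the DEC205 arrays and 8.14 and 8.12 on the DCIR2 arrays. The subunits themselves lay 0.0704 (Cct8) to 0.281 (Cct3) from their own mean. Ranks of the subunits among each other were taken with no symbol left out. For Cct5 the closest other subunit, Cct2, was the 7th closest of 19937 other genes, and for Cct7 the closest, Cct8, was the 57th. Some genes outside the complex thus lay closer to a given subunit than any other subunit did.

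Prefoldin, the complex that captures new actin and tubulin chains and passes them to CCT, rose in part. Of its 6 subunit genes 4 rose and 0 fell in each comparison with PBS. Among all genes 5.32% rose and 3.53% fell after anti-DEC205-BDC, and 10.1% and 7.82% after anti-DCIR2-BDC. The median log2 changes of the 6 were 0.76 and 0.83, beside -0.03 and -0.05 over all genes. Pfdn1 was at 7.27 and 7.24 on the PBS arrays, 8.81 and 8.54 on the DEC205 arrays and 8.32 and 8.74 on the DCIR2 arrays. It rose by 1.42 ± 0.21 and 1.28 ± 0.21 on the log2 scale (limma adjusted p = 0.00278 and 0.00164), and the antibody groups overlapped. Pfdn2 (0.85 and 0.91), Pfdn4 (1.10 and 1.32) and Pfdn6 (0.66 and 0.75) rose too. Vbp1, the prefoldin subunit 3, changed by 0.32 and 0.37 (adjusted p = 0.364 and 0.221), and Pfdn5 by -0.36 and -0.42 (0.4 and 0.243). None of the 6 differed between the antibodies by more than 0.21, in either direction, and 0 had an unadjusted p under 0.05 there.

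The calls of Pfdn1 in both comparisons and of Pfdn2 after anti-DCIR2-BDC held in all 17 alternatives, while the other prefoldin calls did not. For anti-DEC205-BDC, Pfdn2 lost its call when DEC205 array 2 was left out (adjusted p = 0.085). Pfdn4 did not pass without PBS array 2 (0.244), DEC205 array 1 (0.202) or 2 (0.0591), or DCIR2 array 1 (0.0911) or 2 (0.0915), and Pfdn6 did not without any 1 of the 6 arrays (0.0645 to 0.216). For anti-DCIR2-BDC, neither Pfdn4 nor Pfdn6 passed without PBS array 2 (0.066 and 0.0811), DCIR2 array 1 (0.0624 and 0.0668) or DCIR2 array 2 (0.0961 and 0.0834). Over all alternatives 1 to 4 prefoldin genes rose after anti-DEC205-BDC and 2 to 4 after anti-DCIR2-BDC.

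Of 4 genes for phosducin-like proteins, cofactors that bind CCT, 1 rose after anti-DEC205-BDC and 2 after anti-DCIR2-BDC, against 5.32% and 10.1% of all genes. Txndc9 was at 7.19 and 7.21 in PBS, 8.01 and 7.73 after anti-DEC205-BDC and 8.33 and 8.64 after anti-DCIR2-BDC. Its log2 change was 0.67 after anti-DEC205-BDC (adjusted p = 0.0711), where it did not pass, and it rose by 1.28 after anti-DCIR2-BDC (0.00135). Pdcl3 rose by 0.80 (0.0493) and 0.96 (0.0112). It did not pass in the first comparison without PBS array 1 (0.279), DEC205 array 1 (0.187) or 2 (0.114), or DCIR2 array 1 (0.0915) or 2 (0.0913), nor in the second without PBS array 1 (0.0861) or DCIR2 array 1 (0.0843) or 2 (0.067). Pdcl and the dim Pdcl2 changed by -0.18 and -0.03, then by -0.20 and -0.09, and did not pass.

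Of 5 relatives of the CCT subunits that are not part of the complex in most tissues, 0 passed after anti-DEC205-BDC in limma, and 0 had an unadjusted p under 0.05. Among all genes 8.84% passed there, and 10.7% were higher and 10.1% lower at the unadjusted level. After anti-DCIR2-BDC 1 rose and 0 fell, against 10.1% and 7.82% of all genes. Cct6b, the testis form of the zeta subunit, was at a mean of 4.67 in PBS and changed by 0.01 after anti-DEC205-BDC and 0.14 after anti-DCIR2-BDC (adjusted p = 0.976 and 0.628). Cct8l1 (-0.08 and -0.28), Mkks (-0.06 and 0.22) and Bbs10 (-0.23 and -0.30) did not pass either. Mkks, Bbs10 and Bbs12 encode chaperonin-like proteins that assemble the BBSome of cilia. Bbs12 was at 5.85 and 5.37 in PBS, 5.88 and 6.13 after anti-DEC205-BDC and 6.67 and 6.28 after anti-DCIR2-BDC. This is the same group order as in the subunits and in 8.01% of all genes. It changed by 0.40 after anti-DEC205-BDC (adjusted p = 0.352) and rose after anti-DCIR2-BDC (0.86, adjusted p = 0.0182), but not without PBS array 2 (0.136) or DCIR2 array 1 (0.158).

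The main clients of CCT, actin and tubulin, gave calls in both directions. Of 10 measured actin and tubulin genes (Actg1, Tuba1b, Tuba1c and Tubb4b were not analysed here) 1 rose and 0 fell after anti-DEC205-BDC, against 5.32% and 3.53% of all genes. After anti-DCIR2-BDC 3 rose and 1 fell, against 10.1% and 7.82%. Their median log2 changes were -0.04 and -0.10, beside -0.03 and -0.05 over all genes. Actb, the cytoplasmic beta actin, was at 13.19 and 13.32 on the PBS arrays, 13.21 and 13.23 on the DEC205 arrays and 13.12 and 12.94 on the DCIR2 arrays, and changed by -0.04 and -0.23 (adjusted p = 0.855 and 0.0614). At such levels an array may record less than the full change. Tuba1a, an alpha tubulin, was at 10.22 and 10.16 in PBS, 10.19 and 9.77 after anti-DEC205-BDC and 9.27 and 9.06 after anti-DCIR2-BDC. It fell by 1.03 on the log2 scale after anti-DCIR2-BDC (adjusted p = 0.00226), with a change of -0.21 after anti-DEC205-BDC (0.572), and so moved opposite to the subunits. Actb passed downwards after anti-DCIR2-BDC without DCIR2 array 1 (0.0233).

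Among the tubulins, Tubb5, the main beta tubulin of lymphocytes, rose by 0.58 and 0.56 (adjusted p = 0.0451 and 0.0298), Tuba4a by 0.94 after anti-DCIR2-BDC (0.00858) and the centrosomal gamma tubulin Tubg1 by 0.90 (0.0246). Each lost its call without single arrays. Tubb5 did not pass after anti-DEC205-BDC without either PBS or either DEC205 array (0.0867 to 0.206), nor after anti-DCIR2-BDC without PBS array 1 (0.144) or 2 (0.0584) or DCIR2 array 2 (0.223). Tuba4a did not pass without PBS array 1 (0.0569) or DCIR2 array 2 (0.0982), and Tubg1 not without PBS array 2 (0.163) or DCIR2 array 2 (0.211). After anti-DEC205-BDC Tuba4a changed by 0.70 (0.0607), and passed without DEC205 array 1 (0.0384).

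Of the 5 tubulin folding cofactors, which take tubulin over from CCT, 0 rose or fell after anti-DEC205-BDC in limma, with 2 higher at an unadjusted p under 0.05, as were 10.7% of all genes. After anti-DCIR2-BDC 2 rose, Tbca (0.85, adjusted p = 0.0116) and Tbcb (1.07, 0.0155), against 10.1% of all genes. Tbca did not pass without PBS array 2 (0.0617) or DCIR2 array 2 (0.122), and Tbcb not without PBS array 1 (0.0768) or DCIR2 array 2 (0.16). The remaining cofactors, Tbcc, Tbcd and Tbce, changed by -0.06 to 0.26 after anti-DCIR2-BDC and did not pass.

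Of 13 other clients, mostly WD repeat proteins, 0 rose or fell after anti-DEC205-BDC, with 3 higher and 1 lower at an unadjusted p under 0.05, against 10.7% and 10.1% of all genes. After anti-DCIR2-BDC 2 rose and 1 fell, against 10.1% and 7.82%. Gnb4, a G protein beta subunit, fell by 0.95 on the log2 scale (adjusted p = 0.00591), but did not pass without DCIR2 array 2 (0.0545). Mlst8, a subunit of the mTOR complexes, rose by 0.80 (0.0132) and the deacetylase Hdac3 by 1.02 (0.0298). Mlst8 did not pass without PBS array 1 (0.0886) or DCIR2 array 1 (0.0513) or 2 (0.105), and Hdac3 not without PBS array 1 (0.193) or DCIR2 array 1 (0.155) or 2 (0.137). After anti-DEC205-BDC Hdac3 changed by 0.52 (0.35), and passed without PBS array 2 (0.0303). Cdc20, a mitotic activator that CCT folds, changed by 0.50 and 0.56 and did not pass (0.169 and 0.0832), though it did after anti-DCIR2-BDC without DEC205 array 2 (0.0475).

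**Figure D4:**
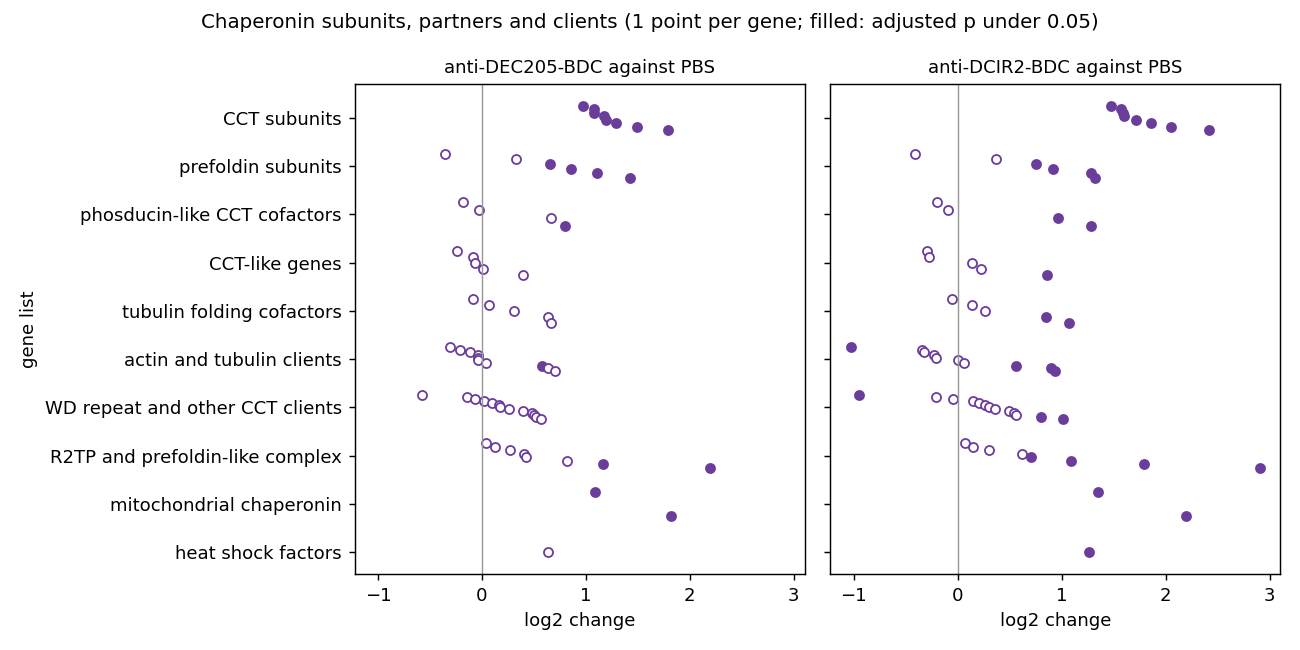
Log2 changes after anti-DEC205-BDC (left) and anti-DCIR2-BDC (right) of the CCT subunits and of 9 lists of partners, relatives and clients (y axis), with 1 point per gene; filled points passed at an adjusted p under 0.05. The CCT and mitochondrial chaperonin rows hold filled points to the right only, while the actin and tubulin row has a median of -0.04 (left) and -0.10 (right).

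Of 8 genes of the R2TP and prefoldin-like complex, a cochaperone that assembles large protein complexes, 2 rose after anti-DEC205-BDC and 4 after anti-DCIR2-BDC. Among all genes 5.32% and 10.1% rose in these comparisons. The ATPase gene Ruvbl1 was at 6.35 and 7.41 in PBS, 8.76 and 9.39 after anti-DEC205-BDC and 9.78 and 9.80 after anti-DCIR2-BDC. It rose by 2.20 ± 0.32 and 2.91 ± 0.32 on the log2 scale (adjusted p = 0.00277 and 0.000188), with the PBS arrays 1.06 apart. The first call was lost when every probe set was tested (0.0554). Its rise was 1.67 without PBS array 1 and 2.73 without PBS array 2 after anti-DEC205-BDC. Its partner Ruvbl2 rose by 1.17 and 1.79 (adjusted p = 0.00467 and 0.000157). Rpap3, which links the ATPases to heat shock proteins, changed by 0.27 (0.491) and rose by 1.09 after anti-DCIR2-BDC (0.00246). Pih1d1 rose by 0.71 after anti-DCIR2-BDC (0.0234), but not without PBS array 1 (0.181) or DCIR2 array 1 (0.132) or 2 (0.0962). Uri1, Uxt, Pdrg1 and Wdr92, of the prefoldin-like part and its associates, did not pass in either comparison.

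The chaperonin of mitochondria, which is related to CCT only distantly, rose alongside it. Hspd1, which encodes its ring protein Hsp60, was at 9.68 and 9.09 in PBS, 11.14 and 11.28 after anti-DEC205-BDC and 11.59 and 11.58 after anti-DCIR2-BDC. It rose by 1.82 ± 0.18 and 2.20 ± 0.18 on the log2 scale (adjusted p = 0.000549 and 4.88e-05). Hspe1, its lid protein Hsp10, rose by 1.09 and 1.35 (0.000534 and 4.29e-05). Both kept their calls in all 17 alternatives. Hsf2, a heat shock transcription factor, changed by 0.64 after anti-DEC205-BDC (0.0855) and rose by 1.26 after anti-DCIR2-BDC (0.00157). Hsf1, the other factor listed, was not analysed here.

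The 8 subunit genes lie on 8 different chromosomes: Tcp1 on 17, Cct2 on 10, Cct3 on 3, Cct4 on 11, Cct5 on 15, Cct6a on 5, Cct7 on 6 and Cct8 on 16. The nearest protein-coding genes on either side, by the RefSeq annotation of GRCm38.p6, were examined to see whether neighbours moved with them, and 15 of these 16 neighbours were measured. After anti-DEC205-BDC 1 of the 15 rose and 0 fell, and after anti-DCIR2-BDC 1 rose and 1 fell, with median log2 changes of 0.09 and 0.21. In all genes 5.32% rose and 3.53% fell in the first comparison and 10.1% rose and 7.82% fell in the second, so 1 call among 15 is near the background. The gene that rose in both was Mrpl18, a mitochondrial ribosomal protein gene next to Tcp1. It was at 8.36 and 8.40 in PBS, 9.07 and 9.34 after anti-DEC205-BDC and 9.69 and 9.68 after anti-DCIR2-BDC. Its rises were 1.77-fold (adjusted p = 0.0139) and 2.48-fold (0.000459), the first of which did not pass without PBS array 1 (0.0628) or DEC205 array 2 (0.109). Acat3, on the other side of Tcp1, changed by 0.37 after anti-DEC205-BDC (0.531), and passed upwards without PBS array 1 in both comparisons (0.0168 and 0.00526). Glmp, next to Cct3, fell by 0.85 after anti-DCIR2-BDC (0.0215), but not without PBS array 2 (0.143) or DCIR2 array 1 (0.179).

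Of the 16 neighbours 5 were recorded head to head with a subunit, that is, transcribed away from it from a start site close by. Acat3, Commd1, Fam161a and Map3k7cl could not be classed, because a strand was not given for the neighbour or for the subunit. Mrpl18 starts 238 bases from Tcp1, Tsacc 136 from Cct3, Psph 103 from Cct6a, Pradc1 203 from Cct7 and Atpsckmt 270 from Cct5. Mrpl18 was the only 1 of the 5 that passed. After anti-DCIR2-BDC Tsacc changed by 0.21 (adjusted p = 0.516), Psph by 0.47 (0.154), Pradc1 by 0.26 (0.612) and Atpsckmt by -0.19 (0.679), next to subunits that rose by 1.57 to 2.42. After anti-DEC205-BDC Atpsckmt changed by -0.70 (0.107), and passed without DEC205 array 2 (0.0419). A miss of the threshold does not show that these neighbours were unchanged, and the 95% interval reached 0.92 for Psph after anti-DCIR2-BDC.

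**Figure D5:**
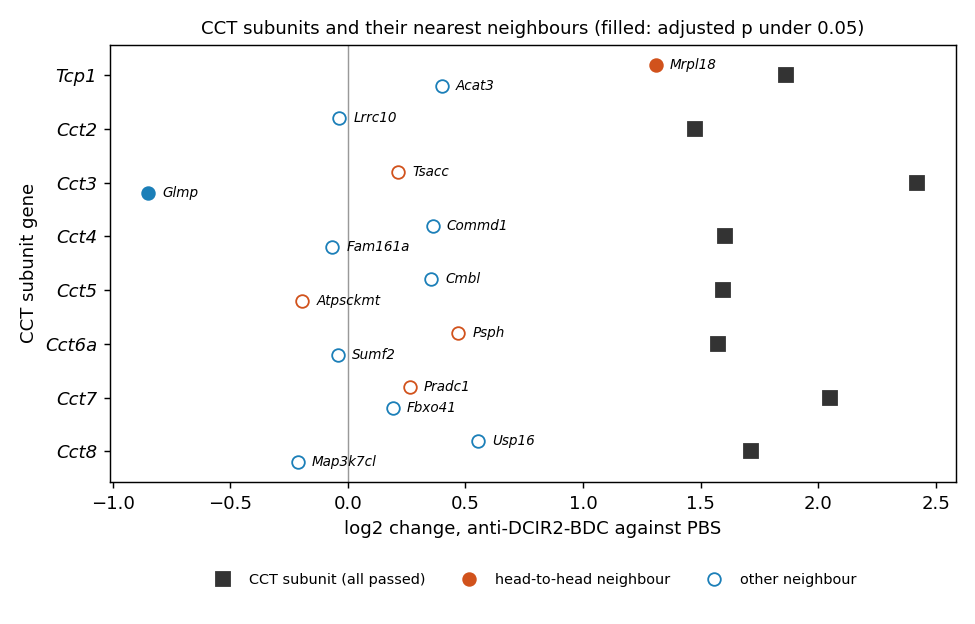
Log2 change after anti-DCIR2-BDC against PBS of each CCT subunit gene (squares) and of its nearest measured protein-coding neighbours (circles), with head-to-head neighbours in orange and passing neighbours filled. The squares lie between 1.47 and 2.42, Mrpl18 next to Tcp1 is the only filled circle to the right of 0, and Glmp next to Cct3 is the only filled circle to its left.

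RefSeq promoter windows of GRCm38.p6, from 250 bases before to 50 after the gene start, were at hand for 7 of the 8 genes, without Cct4. The 4 shown run from 120 bases before to 10 after the start, and were picked for the largest rise (Cct3), the smallest rises (Cct2 and Cct6a) and the neighbour that rose (Tcp1). Capitals mark matches, on either strand, to the 7 motifs searched. Cct3 lies at chr3:88297015-88297144 (+ strand), Cct2 at chr10:117063843-117063972 (- strand), Cct6a at chr5:129787236-129787365 (+ strand) and Tcp1 at chr17:12916209-12916338 (+ strand).
Cct3: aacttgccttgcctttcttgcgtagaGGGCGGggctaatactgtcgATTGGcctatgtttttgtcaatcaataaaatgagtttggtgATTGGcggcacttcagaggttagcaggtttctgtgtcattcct
Cct2: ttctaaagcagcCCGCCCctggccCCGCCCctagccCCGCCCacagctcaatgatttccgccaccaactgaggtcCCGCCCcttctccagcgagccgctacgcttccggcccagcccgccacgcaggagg
Cct6a: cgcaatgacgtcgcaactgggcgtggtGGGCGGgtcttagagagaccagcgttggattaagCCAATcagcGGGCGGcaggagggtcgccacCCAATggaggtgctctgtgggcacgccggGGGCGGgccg
Tcp1: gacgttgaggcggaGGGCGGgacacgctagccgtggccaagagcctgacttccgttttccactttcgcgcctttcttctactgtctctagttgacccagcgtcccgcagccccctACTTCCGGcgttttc

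The GC box letters GGGCGG occurred in 7 of 7 whole windows, against 49.9% of the 15614 windows of measured genes. The CCAAT box letters CCAAT occurred in 4 of 7 (Tcp1, Cct3, Cct6a and Cct7), against 38.2%. The ETS factor letters CCGGAAGT occurred in Tcp1, across its start, and in Cct8, against 5.58% of windows. An exact NRF1 palindrome occurred after the start of Cct5, against 1.45%. None of the 7 windows held the E-box CACGTG (8.38% of windows), the heat shock letters GAANNTTC (6.78%) or the TATA box TATAAA (12.1%). Among the 26 matches 0 pairs overlapped. The motifs were chosen after the sequences had been seen, and a match is a description and not a binding site. Within the bases printed Cct3 and Tcp1 hold 1 GC box each, Cct6a 3 and Cct2 4.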

How the data were processed

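The 6 samples were hybridised to Affymetrix arrays. The authors summarised each probe set by RMA in Partek and deposited the values on the log2 scale, as the design text and processing notes state; version and parameters: not given in the sources used here. Per the labels' protocols, 5 ng of total RNA was amplified, which can add noise. RMA brings the arrays close to one another, which can hide a shift common to every gene. The platform annotation gave 21789 of 35556 probe sets a single symbol, and the probe set with the highest mean stood for each of 19938 genes, with no filter on low values. Array medians over all probe sets were 5.55 and 5.56 in PBS, 5.48 and 5.50 in DEC205 and 5.48 and 5.43 in DCIR2. They thus lay lower in both antibody groups than in PBS. The number of arrays limits precision.

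A single limma fit (version 3.58.1, R 4.3.3) held all 6 arrays, with 1 mean per group, a variance trend and Benjamini-Hochberg adjustment over all genes; tests were two-sided. P-values measure the spread between these samples, which may in part be technical. On simulated data of 19938 genes the fit recovered 85% of 2-fold and 100% of 4-fold changes for either antibody against PBS. False calls numbered 15 for anti-DEC205-BDC and 10 for anti-DCIR2-BDC. The simulation drew independent normal noise with the spread estimated by the fit itself, and changed far fewer genes than passed in the data. Recovery in the data may therefore differ. The members and lists were chosen with earlier results of these data known. The rule named all 8 subunits, up to 4 members of each partner list with the largest change after anti-DCIR2-BDC (all of lists of up to 6), and the 5 nearest genes. Actb, Pdrg1, Uri1, Uxt, Wdr92, the cell type markers and the neighbouring genes were named outside it, after their values were seen. The alternatives were median centring, quantile normalization, 2 filters on dim genes, every probe set, mean probe sets, no trend, a robust trend, array weights, only the arrays compared, a replicate block, and leaving out each array.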

Additional observations from a re-analysis of the deposited data

How the results depend on the processing

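In all 17 alternatives 8 of 8 subunits rose after each antibody against PBS, and 0 passed between the antibodies (limma adjusted p from 0.111 to 0.838). The adjusted p reached at most 0.0488 after anti-DEC205-BDC (Cct4, every probe set tested) and 0.00774 after anti-DCIR2-BDC. The median log2 change of the subunits moved with quantile normalization, to 1.11 after anti-DEC205-BDC, 1.44 after anti-DCIR2-BDC and 0.41 between the antibodies, and with median centring to 1.73 after anti-DCIR2-BDC. Leaving out single arrays gave medians of 1.08 to 1.25, 1.61 to 1.76 and 0.49 to 0.59 in that order. The replicate numbers were not shown to pair the samples (deviations of equal numbers correlated at 0.145, 0.131 and 0.0714 across genes), and with the replicate number as a block the counts of subunits stayed at 8, 8 and 0 and the medians at 1.18, 1.66 and 0.54. With the block Thy1 (adjusted p = 0.0136), Cd3d (0.04) and Cd3e (0.0161) also fell after anti-DEC205-BDC, and Thy1 (0.000814) and Cst3 after anti-DCIR2-BDC, while Hsf2, Tbca and Tuba4a rose after anti-DEC205-BDC. Testing every probe set ended 6 of 10 calls of partner and client genes after anti-DEC205-BDC and 10 of 23 after anti-DCIR2-BDC. Over all genes the number passing was 694 to 2069 after anti-DEC205-BDC (1763 as reported), 2090 to 3885 after anti-DCIR2-BDC (3568) and 0 to 27 between the antibodies (4). The 2 arrays per group limit what can be seen of differences between the antibodies.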
